A study of Mus musculus with 31 samples.

Results

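The genes described here encode the voltage-gated sodium and calcium channels and their auxiliary subunits. They were taken as the protein-coding genes whose GENCODE symbol on the mouse genome GRCm38 begins with Scn, a number and a or b, or with Cacna, Cacnb or Cacng, with a minimum of 10 reads in 7 or more of the 31 sequenced mice. Of 40 genes with such a symbol, 35 passed the read minimum, out of 17428 genes that passed it and 48709 genes in the count tables. They were 7 sodium channel alpha subunits, 4 sodium channel beta subunits, 8 calcium channel alpha1 subunits, 4 alpha2delta subunits, 4 calcium channel beta subunits and 8 gamma subunits. The gene nearest to the minimum among those kept was Cacng1, with 10 reads in 9 mice. Scn10a followed below it with 5 mice, then Cacna1f with 2, Scn11a with 1, and Scn4a and Cacna1s with 0.

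The study asked how extra copies of human CYFIP1 change gene expression in the basolateral amygdala (BLA), a region that forms fear memories. RNA came from tissue punches, with both sides of a mouse combined, and was sequenced by QuantSeq, which reads the 3′ end of polyadenylated RNA. The CYFIP1 overexpressing (CYFIP1 OE) mice carried a bacterial artificial chromosome with the human gene, injected into the pronucleus, on a C57BL/6N background. The paper describes the wild-type (WT) mice as their littermates. The lines were bred from founder mice, and the labels number the lines 1 and 3. The line labelled 1 held 8 WT mice (4 males, 4 females) aged 59 to 61 days and 7 CYFIP1 OE mice (3 males, 4 females) aged 59 to 77 days. The line labelled 3 held 8 WT mice (4 males, 4 females) aged 58 to 60 days and 8 CYFIP1 OE mice (4 males, 4 females) aged 58 to 64 days. The 4 mice aged 77 days were all in the CYFIP1 OE group of line 1. A single name prefix in the labels covered 7 of the 8 WT animals of that line and no CYFIP1 OE mouse. Age and name group therefore cannot be told apart from genotype in line 1.

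An alpha subunit forms the pore of a voltage-gated channel and senses the membrane potential. Sodium channels carry the upstroke of the action potential, and their beta subunits change gating, surface level and adhesion. Calcium channels turn depolarization into calcium entry. The Cav2 channels (Cacna1a, Cacna1b, Cacna1e) serve transmitter release, the L-type channels (Cacna1c, Cacna1d) signalling to the nucleus and pacemaking, and the T-type channels (Cacna1g, Cacna1h, Cacna1i) firing near rest and in bursts. The alpha2delta and beta subunits take these pores to the membrane. Most gamma subunits expressed in brain, among them Cacng2, Cacng3, Cacng4, Cacng5, Cacng7 and Cacng8, are known as TARPs, partners of AMPA-type glutamate receptors.

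The libraries held 5286708 to 8685308 gene reads, of which 0.138% to 0.233%, or 9789 to 17761 reads, fell on the 35 channel genes. A single male of the CYFIP1 OE group in line 3 stood apart. Its connectivity Z-score (how closely its profile follows those of the other mice) was -4.74 against -1.18 for the next lowest. The paper states that samples with such a score under -2 were removed. By the score computed here this mouse falls under that rule, but it was kept in the main fits. Fits without it are given below as alternatives, and they change the number of channel genes called in line 3 and between the lines. The labelled tissue was checked with marker genes. Summed over 6 BLA principal neuron markers, the level in WT mice ranged from 546.5 to 1333 CPM (read counts scaled by TMM to a common library size) in line 1 and from 851 to 1840 CPM in line 3, and in CYFIP1 OE mice from 531 to 1565 CPM in line 1 and from 624 to 3733 CPM in line 3, the 3733 being the mouse that stood apart. Slc17a7, the vesicular glutamate transporter of these neurons, ranged from 3.01 to 1109 CPM over the mice, and Rspo2 was at 0 in the lowest mouse. The largest part of the sum was Camk2a, with a mean of 748 CPM and 476 CPM in its lowest mouse. Markers of striatal projection neurons, whose region borders the BLA, were also high. Of the 8 markers listed, 7 were used, as Drd2 was not among the genes kept. Summed, they ranged in WT mice from 2934 to 4219 CPM (median 3739) in line 1 and from 249 to 5316 CPM (median 2413) in line 3. In CYFIP1 OE mice they ranged from 695 to 4665 CPM (median 2385) in line 1 and from 288.5 to 5918 CPM (median 3707) in line 3, so the punches differed widely in this signal in every group but the WT mice of line 1. In bulk tissue, fewer cells of a type and less RNA per cell cannot be told apart.

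The channel genes spanned levels from below 1 to nearly 200 CPM. Each QuantSeq read stands for the 3′ end of a transcript, so levels were compared between genes as CPM without division by length. Of the 35 genes, 5 had a mean of at least 100 CPM, 27 of at least 10 CPM and 34 of at least 1 CPM, and 28 had at least 10 reads in every mouse. When the genes were ordered by mean level, 3 of the 34 steps between neighbours were larger than the larger SD of the pair over the 31 mice. These were the steps from Scn8a to Cacng4, from Scn2a to Cacna2d1 and from Cacna1d to Cacna1c, and elsewhere the order of neighbours lay within their spread.

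**Figure D1:**
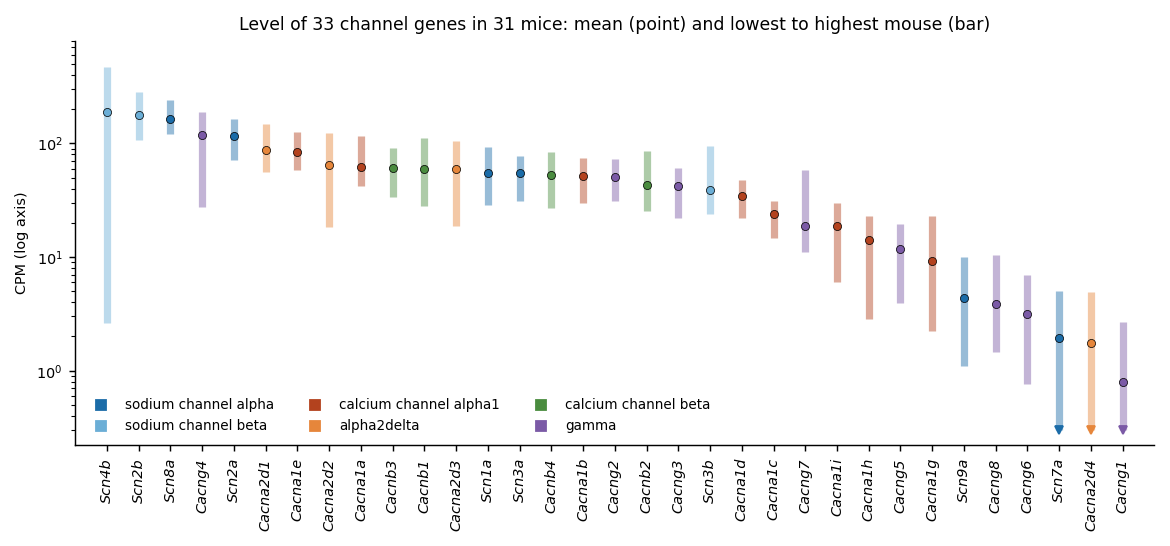
Mean level (point) and range from the lowest to the highest of 31 mice (bar) of 33 channel genes, in CPM on a log axis, ordered by mean and coloured by family; triangles mark genes whose lowest mouse was under 0.3 CPM. Scn4b had the highest mean, 190.0 CPM, and the widest range among genes of at least 10 CPM, from 2.63 to 467 CPM.

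Among the sodium channel pores, the BLA punches were dominated by Scn8a and Scn2a. Scn8a encodes Nav1.6, the channel of mature axon initial segments and nodes, and it had 163 ± 26.5 CPM (SD, n = 31), 41% ± 4.22 of the reads on the 7 alpha subunit genes. Scn2a, which encodes Nav1.2 of principal neurons, had 116 ± 27.1 CPM and 28.9% ± 4.45 of these reads. Scn1a, which encodes Nav1.1 and is the main pore of many fast-spiking interneurons, had 54.8 ± 15 CPM (13.7% ± 3.16), and Scn3a, which encodes Nav1.3 and is best known from the embryonic brain, had 54.7 ± 11.2 CPM (13.9% ± 3.22). Scn1a and Scn3a did not differ beyond their spread, and together with Scn2a and Scn8a they took nearly all reads of the family. Far lower were Scn9a, the Nav1.7 of sensory neurons, with a mean of 4.36 CPM, and Scn7a, which encodes a sodium sensor rather than a voltage-gated channel, with 1.93 CPM.

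The sodium channel beta subunits held the most abundant and most variable channel gene. Scn4b had 190.0 ± 122 CPM and ranged over the mice from 2.63 to 467 CPM, with an SD of 1.75 on the log2 scale, the largest of all 35 genes. Its linked neighbour Scn2b had 179.5 ± 48.9 CPM and ranged from 106 to 282 CPM. Scn4b lay above Scn2b in 17 of 31 mice, and their means differed by less than the SD of either gene. Scn3b had 38.7 ± 12.5 CPM.

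Cacna1e, the R-type pore, was the highest of the calcium channel alpha1 genes with 83.5 ± 15.3 CPM. It was followed by the P/Q-type pore Cacna1a with 61.8 ± 12.5 CPM and the N-type pore Cacna1b with 51.6 ± 9.96 CPM, and these Cav2 genes took 27.9% ± 3.09, 20.7% ± 2.66 and 17.4% ± 2.91 of the reads of the family. The L-type genes Cacna1d and Cacna1c had 34.3 ± 6.63 CPM and 23.9 ± 4.08 CPM. The T-type genes were the lowest, with 18.7 ± 6.58 CPM for Cacna1i, 14.2 ± 4.1 CPM for Cacna1h and 9.24 ± 5.38 CPM for Cacna1g. Cacna1i was also the third most variable of the genes with at least 10 CPM, with an SD of 0.60 on the log2 scale, after Scn4b and Cacna2d3 (0.65).

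Among the subunits that carry the calcium pores to the membrane, Cacna2d1, a target of gabapentin, had 88.3 ± 24.5 CPM, Cacna2d2 had 64.4 ± 19.8 CPM, Cacna2d3 had 59 ± 23.6 CPM and Cacna2d4 had 1.75 CPM. The 4 Cacnb genes lay close together, from 43.4 CPM for Cacnb2 over 52.9 for Cacnb4 and 59.6 for Cacnb1 to 60.5 ± 12.5 CPM for Cacnb3. Among the gamma subunits Cacng4 led with 118 ± 37.6 CPM, 46.2% ± 7.91 of the reads of its family. It was followed by Cacng2 (stargazin) with 50.5 ± 13.3 CPM, Cacng3 with 42.3 ± 9.68 CPM, Cacng7 with 18.8 ± 8.65 CPM and Cacng5 with 11.7 ± 4.24 CPM. Cacng8 and Cacng6 had means of 3.83 and 3.13 CPM, and Cacng1, the subunit of the skeletal muscle channel, was the lowest gene with 0.798 CPM. Some 3′ ends overlap other annotated genes. Another gene lies over the last 1000 bases of Cacng8 on the same strand, and its level is uncertain to that extent. Over those of Cacna1d, Cacna1h, Cacnb4, Scn9a and Scn2b the other gene lies on the opposite strand. Whether reads were counted by strand was not checked.

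Some of the channel genes varied together over the mice. The groups named below were read from the values of single pairs. For each of 595 pairs, Spearman's rho was computed over 31 mice on log2 CPM from which sex, line and genotype had been removed. All genes of a mouse share its punch, library and depth, so the values are given as descriptions. The median rho was 0.08, with 60 pairs above 0.5 and 11 pairs below -0.5. The pairs above 0.5 included 5 within a family, and 28 of the 35 genes had such a partner. No share over pairs of all genes is given, so these counts cannot be set against other genes.

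The highest rho was that of Scn4b with Cacna2d3, 0.90. It was 0.89 in the 15 mice of line 1 and 0.94 in the 16 mice of line 3, and 0.92 without the mouse that stood apart. Cacna2d3 and the TARP gene Cacng4 followed with 0.84, and Scn4b also varied with Cacnb2 (0.81), Cacnb4 (0.81), Cacng4 (0.80) and Scn2b (0.77). The T-type gene Cacna1i belonged to the same group, with 0.74 for Scn2b and 0.74 for Cacna2d3. The group crossed families, with a sodium channel beta pair, a T-type pore, an alpha2delta, calcium channel beta subunits and a TARP.

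Scn8a and Cacna1a formed a separate pair, with a rho of 0.84, and 0.81 without the mouse that stood apart. Both encode pores of mature axons and terminals. In that mouse they were the highest of all 31, at 241 CPM for Scn8a and 117 CPM for Cacna1a. Scn2a, the other abundant pore, went with Cacna2d1 (0.77).

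Cacna1g ran against the group of Scn4b. The 3 lowest values of all pairs were those of Cacna1g with Scn4b (-0.62), Cacna2d3 (-0.61) and Cacng4 (-0.61). Within the lines, rho with Scn4b was -0.54 and -0.40. Over the 15 CYFIP1 OE mice rho was -0.63 with Scn4b and -0.65 with Cacna2d3, and over the 16 WT mice it was -0.09 and -0.02. The difference between the genotypes in rho was not tested.

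**Figure D2:**
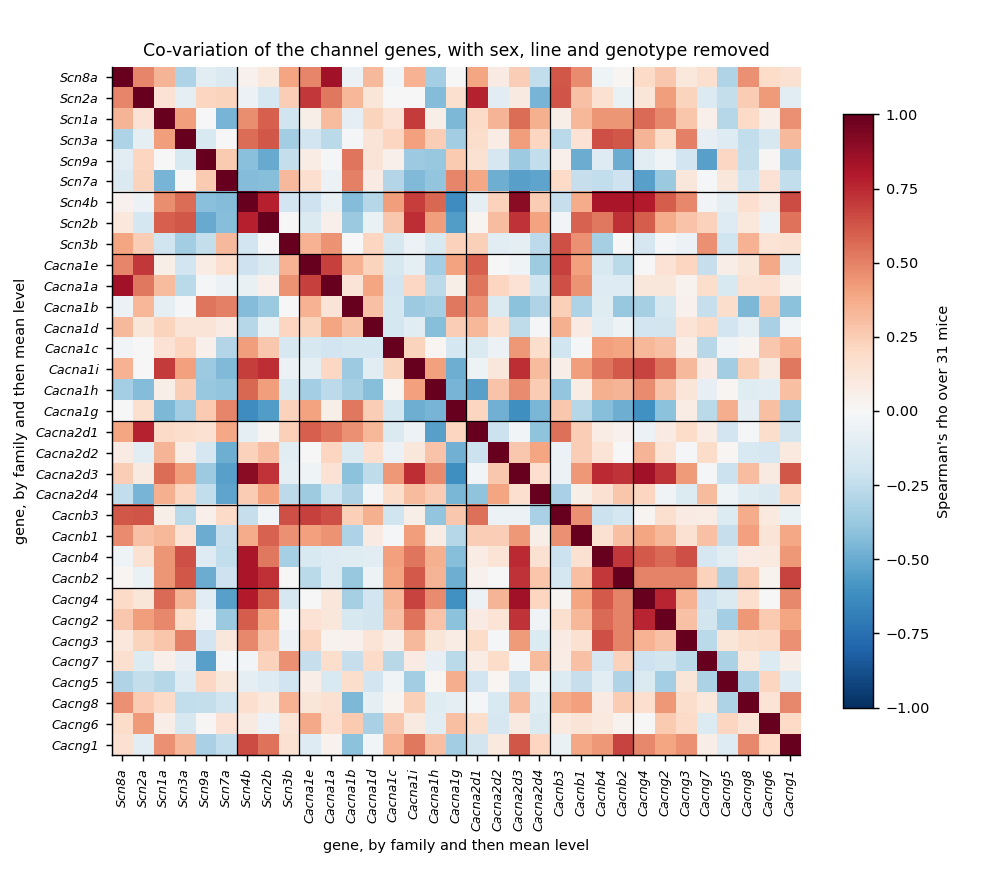
Spearman's rho for each pair of 33 channel genes over 31 mice (colour), with both axes ordered by family and, within it, by mean level; black lines separate the families. The block of Scn4b, Scn2b, Cacna1i, Cacna2d3, Cacnb4, Cacnb2, Cacng4 and Cacng2 is red across family lines, up to 0.90, and the row of Cacna1g is blue in these columns, down to -0.62.

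The same split appeared against the marker genes. With the mean of 7 striatal projection neuron markers, Scn4b had a rho of 0.94, Scn2b 0.86, Cacna2d3 0.86, Cacng4 0.82, Cacnb2 0.79, Cacna1i 0.72 and Cacnb4 0.70, and without the mouse that stood apart that of Scn4b was 0.94. Scn4b is known as an abundant gene of striatal projection neurons. In the WT mouse of line 3 with the lowest striatal marker sum, 249 CPM, Scn4b was at 2.63 CPM, and in the mouse with the highest, 5918 CPM, it was at 400 CPM. In all, 12 of the 35 genes had a rho above 0.5 with these markers, against 6.79% of all genes, and 1 gene, Cacna1g, had a rho below -0.5 (-0.71), against 6.09%. With the mean of 6 BLA principal neuron markers the order turned. Cacna1g was highest with 0.70, followed by Cacna2d1 with 0.63, Scn7a with 0.58, Cacnb3 with 0.57 and Cacna1e with 0.51. The lowest were Cacna1h with -0.68, Cacna2d2 with -0.63, Cacna2d4 with -0.62 and Scn4b with -0.56. These were 5 of 35 genes above 0.5, against 5.21% of all genes, and 4 below -0.5, against 4.26%. The marker means themselves had a rho of -0.59 with each other.

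Of the 8 other marker lists, several also moved with channel genes. With the astrocyte markers 8 of the 35 genes had a rho below -0.5, against 2.39% of all genes, led by Cacna1e with -0.70. None lay above 0.5, against 3.29%. With the oligodendrocyte markers 6 lay below -0.5, against 3.85%, led by Cacna2d1 with -0.67 and Cacna1g with -0.65. There 1 lay above 0.5, Cacna2d4 with 0.69, against 3.96%. With the markers of oligodendrocyte precursors 5 lay below -0.5, against 2.08%. With the interneuron markers 4 lay above 0.5, against 3.14%, and these were Cacng4, Scn4b, Cacna1h and Cacnb4. Each of them also lay above 0.5 with the striatal markers. With the microglia markers Cacna2d2 had 0.63, Cacnb1 0.61 and Cacna1b -0.53, so 2 lay above 0.5, against 3.80%, and 1 below -0.5, against 3.88%. With the general neuron markers 1 gene lay above 0.5, Cacna1g, against 4.29%. There 3 lay below -0.5, Cacna2d2, Cacna2d4 and Cacna1h, against 3.02%. No channel gene passed either value with the thalamic or the vascular markers. Few genes of any kind did, with 0.60% above and 0.48% below for the thalamic and 0.49% and 0.40% for the vascular markers.

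**Figure D3:**
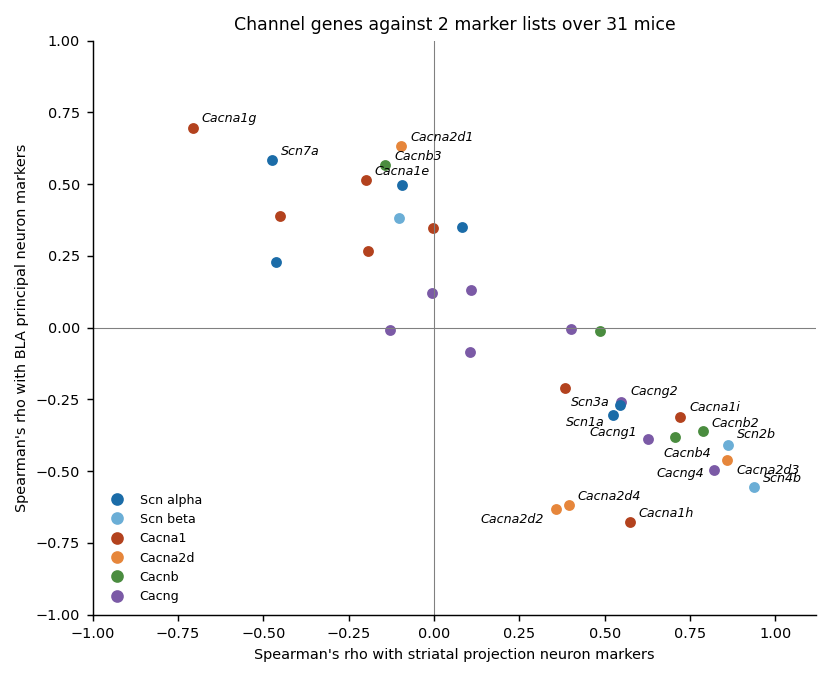
Spearman's rho over 31 mice of 33 channel genes with the mean of the striatal projection neuron markers (horizontal axis) and of the BLA principal neuron markers (vertical axis), coloured by family. Scn4b, Cacna2d3, Scn2b and Cacng4 lie at the lower right, between 0.82 and 0.94 on the horizontal axis, and Cacna1g lies alone at the upper left, at -0.71 and 0.70.

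Some of the genes lie in clusters. Scn2b (ENSMUSG00000070304, chr9:45117782-45130070, plus strand) and Scn4b (ENSMUSG00000046480, chr9:45138395-45154152, plus strand) are neighbours on the same strand, 8324 bases apart, with a rho of 0.77. The 5 sodium channel alpha genes on chromosome 2 (Scn3a, Scn2a, Scn1a, Scn9a and Scn7a) had a median rho of 0.07 over 10 pairs, from -0.47 to 0.42. In the gamma cluster of Cacng7, Cacng8 and Cacng6 on chromosome 7 the 3 values lay between -0.14 and 0.13, and in that of Cacng5, Cacng4 and Cacng1 on chromosome 11 between -0.15 and 0.48.

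The genes of the Scn4b group differed in the base composition in front of their start sites. The RefSeq promoter table of GRCm38.p6 held 36 start sites of 25 of the 35 genes. Shown are the bases upstream of the RefSeq start of 3 genes of the Scn4b group, Cacna2d3, Cacna1i and Scn2b, and of Scn8a, from the pair apart. Only bases outside every exon of the GENCODE annotation are printed, 5′ to 3′ on the strand of the gene, with each GC box (GGGCGG on either strand) in capitals.
Cacna2d3 (chr14:29721865-29722114, minus strand): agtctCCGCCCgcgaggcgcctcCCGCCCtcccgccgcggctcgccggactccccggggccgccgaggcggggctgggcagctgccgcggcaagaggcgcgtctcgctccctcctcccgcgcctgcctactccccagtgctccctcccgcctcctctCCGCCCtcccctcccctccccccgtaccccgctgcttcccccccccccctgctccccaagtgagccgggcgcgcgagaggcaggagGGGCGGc
Cacna1i (chr15:80286988-80287237, plus strand): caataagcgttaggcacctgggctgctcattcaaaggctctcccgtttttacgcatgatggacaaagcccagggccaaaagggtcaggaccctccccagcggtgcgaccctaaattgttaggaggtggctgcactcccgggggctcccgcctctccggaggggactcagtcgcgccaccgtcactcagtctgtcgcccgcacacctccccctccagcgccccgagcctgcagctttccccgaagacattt
Scn2b (chr9:45117626-45117781, plus strand): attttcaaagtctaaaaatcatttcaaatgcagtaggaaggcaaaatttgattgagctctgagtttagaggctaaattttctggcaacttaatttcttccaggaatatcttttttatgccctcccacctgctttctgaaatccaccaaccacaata
Scn8a (chr15:100870395-100870644, plus strand): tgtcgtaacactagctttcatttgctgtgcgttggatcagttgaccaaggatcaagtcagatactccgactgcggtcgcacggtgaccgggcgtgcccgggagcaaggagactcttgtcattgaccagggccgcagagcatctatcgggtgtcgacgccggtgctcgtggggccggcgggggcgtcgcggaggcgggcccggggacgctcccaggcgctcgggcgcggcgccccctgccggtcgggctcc
The 250 bases of Cacna2d3 were 80.0% G and C, with 30 CpG and 4 GC boxes. The 250 bases of Cacna1i were 62.4% G and C with 16 CpG and 0 GC boxes, and the 156 bases of Scn2b were 35.3% G and C with 0 CpG and 0 GC boxes. The full 250 bases of Scn2b, which include exon bases, were 38.4% G and C with 1 CpG. The 250 bases shown for Scn8a were 68% G and C, with 30 CpG and 0 GC boxes. Those of its other start site, not shown, were 53.2% G and C with 9 CpG and 0 GC boxes. Over all 32851 promoters the median of the 250 upstream bases was 52.4% G and C with 6 CpG, 32.7% held a GC box and 12.4% held a TATA box (TATAAA on either strand). Of the 36 windows of channel genes 13 held a GC box and 2 a TATA box. A match describes the letters only and is not evidence that a factor binds there.

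The first comparison asked which channel genes differed between CYFIP1 OE and WT mice over both lines, with sex and line in the model. Of the 35 genes, 1 passed an unadjusted p of 0.05, against 4.3% of all 17428 genes. By direction, 1 was higher in CYFIP1 OE mice, against 2.27%, and 0 were lower, against 2.04%. None had a p under 0.005 (0.293% of all genes) or an adjusted p under 0.05 by edgeR's quasi-likelihood F test. DESeq2 also gave 1 at p under 0.05, and it passed 0.005 there. The log2 fold changes were above 0 for 24 of 35 genes, against 48.7% of all genes, with a median of 0.08 against -0.01. For no channel gene did the values of the groups separate without overlap, against 0.0402% of all genes in line 1, 0.0115% in line 3 and 0% over both lines.

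The genes named for this comparison did not pass. Among those with a higher mean, the TARP gene Cacng8 had a log2 fold change of 0.38 (SE 0.25, adjusted p = 0.999). Among those with a lower mean, Cacna1b had -0.13 (SE 0.10, adjusted p = 0.999), Scn3a -0.14 (SE 0.11, adjusted p = 0.999) and Cacng6 -0.27 (SE 0.27, adjusted p = 0.999). Of the abundant pores, Scn2a had 0.00 (SE 0.12), Scn1a 0.14 (SE 0.14) and Scn8a 0.08 (SE 0.09), each near or within 1 standard error of 0.

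Taken by family, all 4 sodium channel beta genes lay above 0, and the 8 alpha1 genes were split, with 3 above 0. In the other families 5 of 7 sodium channel alpha, 3 of 4 alpha2delta, 3 of 4 beta and 6 of 8 gamma genes lay above 0.

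The lines were then fitted with a genotype difference of their own. In line 1, 3 of the 35 genes passed an unadjusted p of 0.05, against 3.96% of all genes. In CYFIP1 OE mice 2 of 35 were higher, Cacna1g among them, against 2.15%, and Scn3a was lower, 1 of 35 against 1.82%. In line 3, 4 of the 35 passed it, against 7.93% of all genes. Cacnb1 and Scn2b were higher, 2 of 35 against 4.26%, and Cacna1b and Cacna1g were lower, 2 of 35 against 3.67%. Cacna1g was thus called in both lines with opposite signs. By edgeR no channel gene had a p under 0.005 in either line, against 0.35% of all genes in line 1 and 0.93% in line 3, or an adjusted p under 0.05. DESeq2 gave the same 3 and 4 genes at p under 0.05, and by DESeq2 Cacna1g in line 1 also passed 0.005, as it did by edgeR without the mouse that stood apart.

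Cacna1g, the T-type pore Cav3.1, had 3.74 to 10.4 CPM (median 6) in WT and 2.78 to 23 CPM (median 15.9) in CYFIP1 OE mice of line 1. In line 3 the order was turned, with 2.22 to 17.3 CPM (median 10.9) in WT and 2.28 to 12.9 CPM (median 5.14) in CYFIP1 OE mice. In line 1, 6 of 7 CYFIP1 OE animals exceeded the WT mean and 5 exceeded every WT mouse, while in line 3 2 of 8 exceeded it, and the ranges overlapped in both. The means were 6.4 ± 2.39 CPM and 13.9 ± 6.82 CPM in line 1 and 10.9 ± 4.37 CPM and 6.39 ± 4.02 CPM in line 3 (SD, n = 8, 7, 8 and 8). The log2 fold changes were 1.10 (SE 0.37, adjusted p = 1.00) and -0.75 (SE 0.36, adjusted p = 0.619).

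Scn3a had 49.6 to 77.4 CPM (median 61) in WT and 38.8 to 56.2 CPM (median 47.3) in CYFIP1 OE mice of line 1, and 37.4 to 70.9 CPM (median 54.4) and 31 to 77.1 CPM (median 56.8) in line 3. All 7 CYFIP1 OE mice of line 1 were below the WT mean, although the ranges overlapped. Its log2 fold change was -0.35 (SE 0.15, adjusted p = 1.00) in line 1 and 0.06 (SE 0.14, adjusted p = 0.946) in line 3.

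The 3 calls of line 1 were lost when the oldest mice were left out. Without the 4 CYFIP1 OE mice aged 77 days, 1 channel gene had a p under 0.05 in line 1, Cacng8, and Cacna1g had a log2 fold change of 0.62 (SE 0.49) and Scn3a of -0.39 (SE 0.21), and neither passed. Age and genotype cannot be told apart in these mice. The striatal marker sum had a median of 3739 CPM in WT and 2385 CPM in CYFIP1 OE mice of this line, and with its score in the model Cacna1g had 0.75 (SE 0.37) and passed, Scn3a had -0.19 (SE 0.14) and did not.

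In line 3, Cacnb1, the beta subunit first known from skeletal muscle, had 28.2 to 66.3 CPM (median 54.1) in WT and 46.3 to 111 CPM (median 65) in CYFIP1 OE mice. In line 1 it had 40.1 to 111 CPM (median 56.1) and 41.3 to 76.7 CPM (median 52.3). In line 3, 7 of 8 CYFIP1 OE animals exceeded the WT mean and the ranges overlapped. The log2 fold change was 0.56 (SE 0.20, adjusted p = 0.514) in line 3 and -0.20 (SE 0.21, adjusted p = 1.00) in line 1. The highest value, 111 CPM, was that of the mouse that stood apart. Cacnb1 varied with the microglia markers (rho 0.61) and against those of oligodendrocyte precursors (-0.61) and astrocytes (-0.52). Its rho with the striatal markers was 0.49. Without the mouse that stood apart it was 0.66 with the striatal and 0.58 with the microglia markers. Summed over 5 genes, the microglia markers ran in line 3 from 120.1 to 206.3 CPM (median 152.3) in WT mice. In CYFIP1 OE mice of line 3 they ran from 160.6 to 294.4 CPM (median 177.2), the 294.4 being the mouse that stood apart. In line 1 they ran from 156.7 to 201.5 CPM (median 169.3) in WT and from 121.8 to 254.4 CPM (median 153.5) in CYFIP1 OE mice. The part of any of these markers in the result was not tested.

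Cacna1b, the N-type pore, had 39.8 to 74.3 CPM (median 56.3) in WT and 37.6 to 59.8 CPM (median 45.5) in CYFIP1 OE mice of line 3, and 42.3 to 58.5 CPM (median 48.8) and 30.0 to 66.2 CPM (median 57.5) in line 1. In line 3, 7 of 8 CYFIP1 OE mice were below the WT mean, with overlap. Its log2 fold change was -0.32 (SE 0.13, adjusted p = 0.548) in line 3 and 0.07 (SE 0.13, adjusted p = 1.00) in line 1. Scn2b, named because it passed and not by the rule for reported genes, had a log2 fold change of 0.39 (SE 0.17, adjusted p = 0.584) in line 3, with 115 to 278 CPM (median 137) in WT and 129.9 to 282 CPM (median 226) in CYFIP1 OE mice.

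The 4 calls of line 3 depended on the model. Without the mouse that stood apart all 4 still passed, with 0.44 (SE 0.20) for Cacnb1, 0.47 (SE 0.17) for Scn2b, -0.29 (SE 0.13) for Cacna1b and -0.93 (SE 0.38) for Cacna1g. With the striatal marker score in the model Cacnb1 (0.54 (SE 0.20)) and Cacna1b (-0.29 (SE 0.13)) passed, while Scn2b (0.21 (SE 0.13)) and Cacna1g (-0.62 (SE 0.34)) did not. Cacna1a and Cacng7 passed in that fit as well. With the BLA marker score Cacna1a and Scn8a were added and Scn2b was lost. The labels put the mice of line 3 in 4 name groups that each held both genotypes. With the name group as a block in this line alone, a fit chosen after the data were seen, Cacnb1 (0.53 (SE 0.23)) and Cacna1b (-0.31 (SE 0.13)) passed and Scn2b (0.26 (SE 0.20)) and Cacna1g (-0.65 (SE 0.45)) did not. In line 3 alone without the block, Scn2b and Cacna1g did not pass either. With 5 surrogate variables none of the 4 passed, at 0.14 (SE 0.18) for Cacnb1, -0.12 (SE 0.13) for Cacna1b, 0.11 (SE 0.15) for Scn2b and -0.20 (SE 0.36) for Cacna1g.

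Beyond the single calls, 28 of the 35 genes lay above 0 in line 3, against 47.4% of all genes, with a median log2 fold change of 0.19 against -0.02. In line 1, 15 of 35 lay above 0, against 50.4%, with a median of -0.03 against 0.00. The families that leaned most in line 3 were alpha2delta (4 of 4 above 0, median 0.33), sodium channel beta (4 of 4, median 0.31) and calcium channel beta (4 of 4, median 0.28), while alpha1 had 5 of 8 and a median of 0.01. With the striatal marker score in the model, an alternative chosen after the data were seen, 18 of 35 genes lay above 0 in line 3 and the median was 0.01. With the name group as a block in line 3 alone 19 of 35 lay above 0 and the median was 0.01, against 28 and 0.19 in line 3 alone without it. The striatal marker sum itself had a median of 2413 CPM in WT and 3707 CPM in CYFIP1 OE mice of that line.

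**Figure D4:**
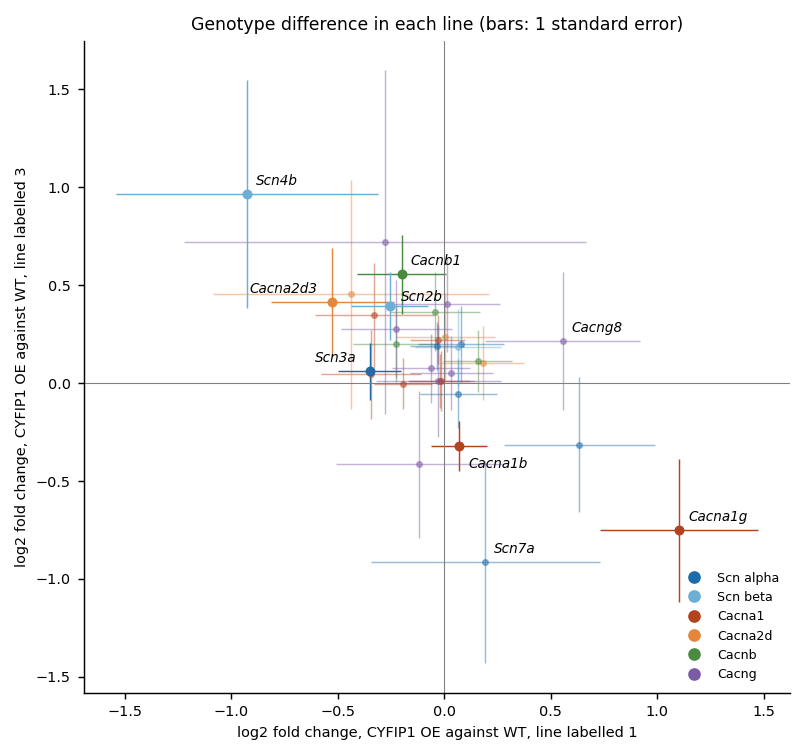
Log2 fold change of 33 channel genes between CYFIP1 OE and WT mice in the line labelled 1 (horizontal axis) and the line labelled 3 (vertical axis), with bars of 1 standard error from edgeR, coloured by family; larger points are the genes with p under 0.05 in a genotype comparison. Cacna1g lies at the lower right (1.10 and -0.75), and Scn4b at the upper left (-0.93 and 0.96).

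The last genotype comparison asked whether the lines differed in their genotype difference. The signs were the same in both lines for 12 genes (10 higher and 2 lower in CYFIP1 OE mice), 18 genes were lower in line 1 and higher in line 3, and 5 were the reverse. The same counts were not made over all genes, so they do not show whether channel genes differ from others here. The lines share no mice, and the difference was tested as an interaction. It had a p under 0.05 for 6 channel genes, against 8.1% of all genes, and under 0.005 for 1, Cacna1g, against 0.843%. The difference, line 3 minus line 1, was above 0 for 4 of these genes (4.03% of all genes) and below 0 for 2 (4.07%), and it was above 0 for 25 of all 35, against 48.6%. None had an adjusted p under 0.05, and DESeq2 gave the same 6 genes.

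For Cacna1g the difference, line 3 minus line 1, was -1.86 (SE 0.52, adjusted p = 0.507). It passed at -2.04 (SE 0.52) without the mouse that stood apart, -1.35 (SE 0.62) without the mice aged 77 days and -1.37 (SE 0.51) with the striatal marker score in the model. With 5 surrogate variables it was -0.52 (SE 0.45) and did not pass.

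The other 5 genes split by sign. Cacnb1 had a difference of 0.76 (SE 0.29, adjusted p = 0.548), Scn2b of 0.65 (SE 0.25, adjusted p = 0.548), Cacna2d3 of 0.94 (SE 0.40, adjusted p = 0.570) and Scn4b of 1.89 (SE 0.84, adjusted p = 0.574), and Cacna1b of -0.39 (SE 0.18, adjusted p = 0.587). The widest was that of Scn4b. In line 1 it had 123 to 374 CPM (median 237) in WT and 18.1 to 305 CPM (median 108) in CYFIP1 OE mice, and in line 3 2.63 to 305 CPM (median 123) and 5.2 to 467 CPM (median 248). The WT mice of line 1 had the smallest spread of the 4 groups, and the genotypes overlapped in both lines. Cacna2d3 showed the same order, with 52.1 to 97.2 CPM (median 64.4) and 23.2 to 82.5 CPM (median 47.2) in line 1 and 18.8 to 86.9 CPM (median 46.7) and 26.5 to 106 CPM (median 65.1) in line 3.

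The size of these differences changed with the striatal marker score. With the striatal marker score in the model, the difference between the lines was -0.19 (SE 0.26) for Scn4b, 0.14 (SE 0.21) for Cacna2d3 and 0.24 (SE 0.20) for Scn2b, and 0.67 (SE 0.30) for Cacnb1. Cacna1g and Cacnb1 kept a p under 0.05 and the other 4 did not, and the part of the striatal signal in the result was not tested further. Without the mouse that stood apart, which had the lowest striatal marker sum of its group, 10 genes had a p under 0.05, with Scn3a, Cacna1i, Cacng4, Cacnb4 and Cacna1h added and Cacna1b lost. For the genotype difference in line 3, in the model with all 4 groups, the same step raised the count from 4 to 7 genes, with Cacnb2, Scn4b and Cacng4 added.

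**Figure D5:**
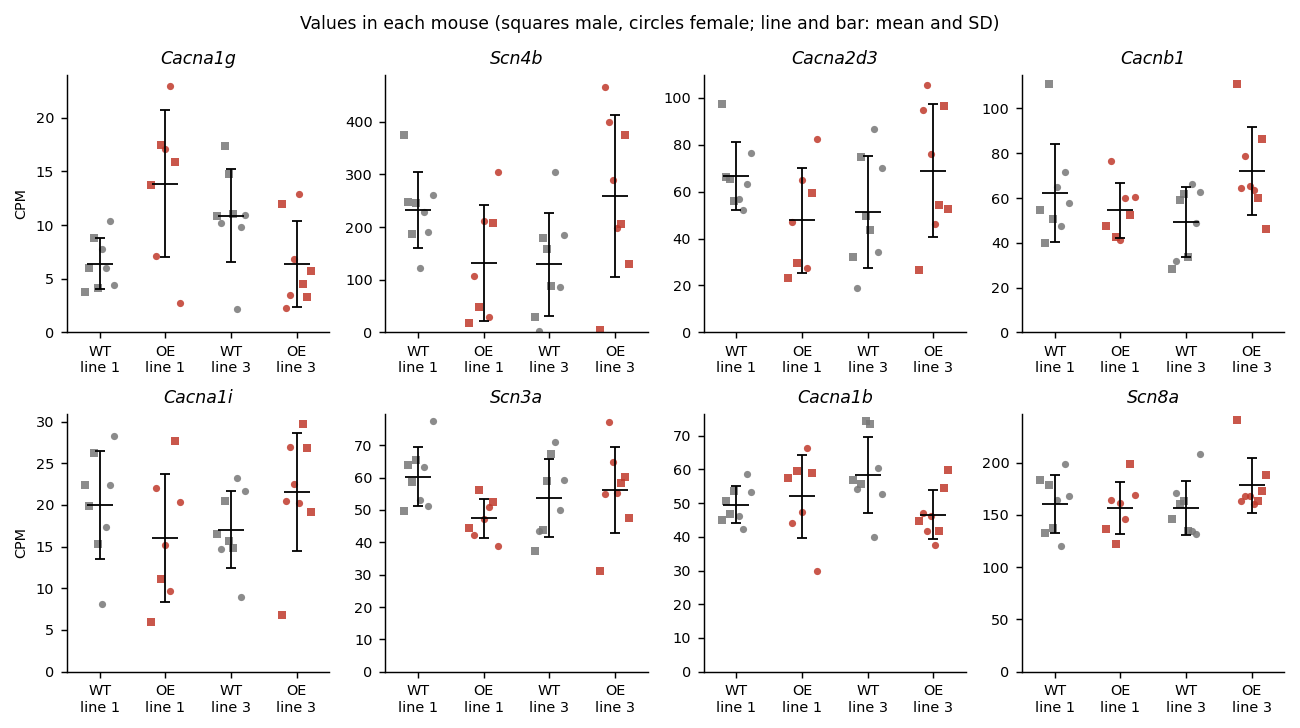
Level in each mouse, in CPM, of 8 channel genes in the 4 groups (grey WT, red CYFIP1 OE; squares males, circles females), with the mean and SD of each group in black. Cacna1g is higher in CYFIP1 OE mice of line 1 (mean 13.9 against 6.4 CPM) and lower in those of line 3 (6.39 against 10.9 CPM), Scn4b shows the reverse with wide spread, and Scn8a lies between 120 and 241 CPM in every group.

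Sex was compared with line and genotype in the model. The channel genes with a p under 0.05 were 2, both lower in females, against 4.62% of all genes, and 1 passed a p of 0.005, against 0.436%. By direction, 0 were higher in females (1.6% of all genes) and 2 lower (3.02%), and 19 of 35 lay above 0, against 46.6%. Cacna1b had 41.6 to 74.3 CPM (median 55.8) in the 15 males and 30.0 to 66.2 CPM (median 46.6) in the 16 females, with overlap, and a log2 difference, female minus male, of -0.21 (SE 0.10, adjusted p = 0.970). None of the 35 had an adjusted p under 0.05, against 0.0631% of all genes.

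Line was compared with sex and genotype in the model. The genes with a p under 0.05 were 2 of 35, against 3.31% of all genes, 1 higher in line 3 (1.67%) and 1 lower (1.64%). By edgeR none had a p under 0.005 (0.189%), and 1 did by DESeq2, and none had an adjusted p under 0.05, and 24 of 35 lay above 0, against 51.8%. The L-type pore Cacna1c had 14.8 to 28.9 CPM (median 22.9) in the 15 mice of line 1 and 20.1 to 31.2 CPM (median 25.4) in the 16 mice of line 3, with overlap, and a log2 difference, line 3 minus line 1, of 0.21 (SE 0.09, adjusted p = 1.00). Without the mice aged 77 days it was 0.16 (SE 0.10) and did not pass.

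Genes whose products bind or regulate these channels were read from lists of 15 sodium channel partners, 19 calcium channel partners, of which 17 passed the read minimum, and the 4 AMPA receptor subunits that TARPs accompany. Over both lines 0 of 15 sodium channel partners, 1 of 17 calcium channel partners (higher) and 0 of 4 AMPA receptor subunits had a p under 0.05, where the share of all genes was 4.3%, and 0 had an adjusted p under 0.05. The gene that passed was Akap5, which anchors kinases and calcineurin at the L-type channel, with a log2 fold change of 0.42 (SE 0.14, adjusted p = 0.999). It was listed at a mean of 116200.0 CPM, the second highest of all genes. GENCODE places no other gene over it, and what else these reads could hold was not tested. The AMPA receptor subunits had log2 fold changes between 0.03 and 0.09.

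In line 1 the gene that passed was 1 of 36 partner genes (3.96% of all genes), and in line 3 there were 3 of 15 sodium and 3 of 17 calcium channel partners (7.93%). Between the lines there were 2 of 15 and 3 of 17 (8.1%), and with 5 surrogate variables 3 of the 36 passed in line 3 and 2 between the lines. For line there were 2 of 36 (3.31%) and for sex 1 of 36 (4.62%).

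Nedd4l, a ubiquitin ligase that takes sodium channels from the membrane, was the partner gene called in both lines, with opposite signs. It had 102 ± 12.2 CPM in WT and 77.3 ± 19.4 CPM in CYFIP1 OE mice of line 1, and 86.7 ± 22.3 CPM and 119 ± 23.6 CPM in line 3 (SD, n = 8, 7, 8 and 8). Its log2 fold change was -0.41 (SE 0.16, adjusted p = 1.00) in line 1 and 0.46 (SE 0.15, adjusted p = 0.514) in line 3, and the difference between the lines was 0.87 (SE 0.22, adjusted p = 0.476). In line 3 Ank3, which holds sodium channels at the axon initial segment, was higher, 0.30 (SE 0.13, adjusted p = 0.564), and Fgf13, which binds their tails, was lower, -0.43 (SE 0.15, adjusted p = 0.514). The calcium channel partners with a p under 0.05 in line 3 were Stac2, -0.69 (SE 0.23, adjusted p = 0.514), Akap5, 0.58 (SE 0.19, adjusted p = 0.514), and Rem2, a GTPase that inhibits calcium channels, 0.66 (SE 0.29, adjusted p = 0.584). The lines differed for Ank3, 0.44 (SE 0.18, adjusted p = 0.559), Stac2, -1.16 (SE 0.33, adjusted p = 0.507), Rem2, 1.25 (SE 0.42, adjusted p = 0.535), and Ncs1, a calcium sensor, -0.64 (SE 0.31, adjusted p = 0.606). Fgf12 had a p under 0.05 for line, -0.27 (SE 0.12, adjusted p = 1.00), as did Erc2, 0.24 (SE 0.11, adjusted p = 1.00), and Gria4 for sex, -0.21 (SE 0.10, adjusted p = 0.970).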

How the data were processed

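QuantSeq 3′ libraries of BLA punches from 31 mice (16 WT, 15 CYFIP1 OE) were used, with each mouse as 1 replicate and groups from the sample labels. The authors mapped reads with STAR to GRCm38 and Gencode v11, quantified them with Salmon and deposited expected counts for 48709 genes, without normalization. GENCODE M21 on the same build named 48349 of them. Here the estimated counts were rounded, 17428 genes reached 10 reads in 7 or more mice and were kept, and edgeR 4.0.16 in R 4.3.3 fitted quasi-likelihood models with TMM. Sex, line and genotype were additive terms for the comparison over both lines and for sex and line, and the 4 groups with sex gave the differences by line and between lines. Fold changes are CYFIP1 OE over WT, standard errors come from the F statistic, and tests are two-sided. A p under 0.05, a p under 0.005 (the study's threshold) and a Benjamini-Hochberg adjusted p under 0.05 were used. The study's sequencing principal components were not used here, and its removal of samples by connectivity Z-score was not applied in the main fits. Alternatives used 5 surrogate variables from sva 3.50.0 or replaced edgeR by DESeq2 1.42.0. Totals of 5286708 to 8685308 reads limit the genes of few reads.

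Levels are TMM-normalized CPM, and log2 values used a prior count of 2. The channel genes, partner lists, marker lists and the rule for reported genes were chosen with earlier results of these data known. The rule took the 3 smallest p in each direction over both lines, the 2 smallest p in each line, between lines, for sex and for line, the 4 main brain sodium channel pores, the highest gene of each other family, the 3 highest and 3 lowest pairs, and the 3 genes of at least 10 CPM with the largest SD. Marker scores are means of standardized log2 CPM. Of 10 marker lists, those of striatal projection and BLA principal neurons were also used as covariates. Promoter sequences are from RefSeq (GRCm38.p6). The fits were tested on simulated counts. Counts over the channel genes include all 35, of which 2 are not reported here by name or shown in the plots.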

Additional observations from a re-analysis of the deposited data

Results flagged for a closer look

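In 5 of the 72 groups of values examined (18 channel genes in 4 groups), 1 mouse lay apart from the others by Dixon's test. For independent groups chance gives about 1 in 20. The genes share the same mice and were chosen with these data known, so that rate cannot judge the count. Of the 5 groups, 3 had as the mouse apart 1 male in the CYFIP1 OE group of line 3, whose connectivity Z-score was -4.74. It had 240.6 CPM for Scn8a against 160.2 to 188.5 CPM in the other mice of its group, 116.8 CPM for Cacna1a against 54.6 to 80.8 CPM, and 6.81 CPM for Cacna1i against 19.1 to 29.7 CPM. Cacnb1 was at 111.0 CPM in a WT male of line 1 against 40.1 to 71.8 CPM, and Cacnb3 at 38.5 CPM in a WT male of line 3 against 54.5 to 67.1 CPM.

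The genotype difference differed between the lines, by the interaction term of edgeR with a p under 0.05, for 6 channel genes, none with an adjusted p under 0.05. The log2 differences, line 3 minus line 1, were -1.86 for Cacna1g, 0.76 for Cacnb1, 0.65 for Scn2b, 0.94 for Cacna2d3, 1.89 for Scn4b and -0.39 for Cacna1b.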

How the results depend on the processing

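No paired analysis was possible because the labels give the mice no replicate number shared between groups. In line 3 each of the 4 name groups held both genotypes, and with the name group as a block in the 16 mice of that line, a fit chosen after the data were seen, 3 channel genes had a p under 0.05 (Cacna1b, Cacnb1 and Cacng7), and Cacna1g and Scn2b lost it. Alternatives were a different test or normalization, other filters, age, surrogate variables or a marker score as covariates, and subsets of the mice. Of the recomputed log2 fold changes of genes in the comparison that named them 142 kept direction and side of p 0.05, 21 lost it and 4 gained it, and none changed sign. Scn4b, which the rule named for its level and spread but not for a comparison, turned from 1.89 to -0.19 between the lines with the striatal score. Without the mouse that stood apart, or with a prior count of 0.5, the median rho and the 6 named pairs moved by less than their sampling error. The subsets by genotype are not covered by this, and there the pairs of Cacna1g with Scn4b and Cacna2d3 were much weaker in WT mice. The marker scores were added after the data were seen. Depth limits the genes of few reads, such as Cacng8 and Cacng6.

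The number of channel genes with p under 0.05 over both lines (1) became 0 with at least 10 reads in every mouse, which left 28 of the genes, 4 with 5 surrogate variables, 2 without the mice aged 77 days and 2 in the name groups with both genotypes. In line 1 (3) it became 1 with age as a covariate, 1 without the mice aged 77 days and 6 with line 1 alone. It was 4 with surrogate variables and without the filter, and 2 with the striatal score and with 10 reads in every mouse. In line 3 (4) it became 1 with surrogate variables, a gene outside the 4, 7 without the mouse of low connectivity and 2 with line 3 alone. It was 5 without the filter and with the BLA score, and 3 without the mice aged 77 days and with the name group as a block. Between the lines (6) it became 3 with age, 0 with surrogate variables, 3 without the mice aged 77 days and 10 without the mouse of low connectivity. There it was 5 without the filter, 2 with the striatal score and 3 with the BLA score. For sex (2) it became 1 without the filter, 1 with 10 reads in every mouse and 1 with surrogate variables. For line (2) it became 1 with 10 reads in every mouse, 0 with age, 1 with surrogate variables, 0 without the mice aged 77 days and 5 with the BLA score. It was 3 with DESeq2, with the striatal score and without the mouse of low connectivity. With age as a covariate the count over both lines stayed 1, but the gene was another one, Cacna1b. In line 3 the count stayed 4 with the striatal score, but Cacna1a and Cacng7 stood in place of Scn2b and Cacna1g. For line it stayed 2 without the filter, with Cacnb2 in place of Cacna1c. The cause of these changes was not tested, except that leaving out mice or genes also leaves fewer to test.

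Of 36 partner genes, the 1 called over both lines became 3 without the filter, 6 with surrogate variables, 2 in the name groups, 2 with the striatal score and 3 with the BLA score. In line 1 the 1 became 2 with DESeq2, 2 without the filter, 0 with age, 6 with surrogate variables, 0 without the mice aged 77 days, 3 without the mouse of low connectivity and 3 with line 1 alone. In line 3 the 6 became 3 with surrogate variables. Between the lines the 5 became 2 with surrogate variables, 2 with the striatal score and 3 with the BLA score. For sex the 1 became 2 with RLE normalization, 0 without the filter, 2 with 10 reads in every mouse, 2 with age, 0 with surrogate variables and 0 with the striatal score. For line the 2 became 0 with age and 0 without the mice aged 77 days. Over all genes, the 51 with a p under 0.005 over both lines became 81 with DESeq2, 366 of 32936 without the filter, 126 with surrogate variables and 79 with the BLA score.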
